A study of Mus musculus with 12 samples.

Results

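Ccl3, Ccl4, Ccl5, Ccl1 and Xcl1 are 5 of the 32285 genes counted here, and each encodes a chemokine released by activated T cells, natural killer (NK) cells or macrophages. They were followed in 4 classes of cells taken from mouse tumours. The members were chosen by their measured levels (CPM per hashed sample in these classes), so the levels by class are given as a description and with no test. A CD8 T cell had at least 2 UMIs (unique molecular identifiers, each standing for 1 captured RNA molecule) of Cd3e, Cd3d and Cd3g together and at least 1 of Cd8a and Cd8b1. A CD4 T cell met the same CD3 limit and had at least 1 Cd4 UMI. An NK cell had at least 2 UMIs of Ncr1, Klrb1c and Klre1 together and 0 of the CD3 genes. A myeloid cell had at least 1 UMI each of Tyrobp and Lyz2. Of 48219 tumour cells, 870 fell in the CD8 T class, 1079 in the CD4 T class, 281 in the NK class and 7208 in the myeloid class. A further 281 cells passed several gates and were left out of every class, and 38500 passed none.

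The tumours came from a study of melanoma rejection in mice and were grown from 5 lines named SCC31, SCC32, SCC35, SCC37 and SCC40. In the authors' table of hashtags 2 lines (SCC40, SCC31) carry the outcome rejected and 3 (SCC37, SCC35, SCC32) non-rejected. It gives tumours at days 6, 10 and 16 for every line and also at day 20 for the non-rejected lines. It also lists 2 day 0 samples for each line, with no mouse. The sources used here do not name a mouse strain, sex, age, treatment or engineered allele. Each line had 1 library of its own, and a mix library held tumour 3 of SCC31, SCC35 and SCC40, so that line and library cannot be told apart outside the mix library. The design is 43 tumours and 10 day 0 samples. No pair of mouse and cage numbers was repeated within a line, and 13 pairs were listed under more than 1 line.

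The labels were checked before any comparison. Of 7 melanocytic markers, Mitf was found in 7.84% of the 7012 day 0 cells, Tyr and Tyrp1 in none, and Pmel, Mlana, Dct and Sox10 in at most 14 cells, so the defining markers of melanocytes were absent or nearly so. The summed level of Uty, Kdm5d, Eif2s3y and Ddx3y, which lie on the Y chromosome, was 91.7 to 116 CPM (counts scaled to a fixed total in each sample) in the SCC31 day 0 samples, but 0.586 and 4.13 CPM in ungated cells of the SCC31 tumours of the mix library and 0 to 27.4 CPM in those of its own library. The 2 mix library tumours are the only SCC31 tumours with enough cells for the class levels below. In SCC32 the same sum was 30.8 to 31.8 CPM at day 0 and 22.7 to 44.3 CPM in ungated cells of 7 tumours, but 3.52 CPM in tumour 2 of day 20. The other 3 lines had at most 6.15 CPM in any sample. The tests of members, gene lists and outcome were also run without those 3 tumours, which takes SCC31 out of the class comparisons. This alternative was chosen once the data were known, and its values are given below where it changed a call named in the text. Of the barcodes, 3464 occurred in more than 1 library.

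The markers that the gates did not use followed the class names with exceptions. In CD8 T and CD4 T cells, 7 of 7 T cell markers were detected in at least 10% of cells, against 1 of 9 myeloid markers in each, Ly6c2, a gene that T cells also express. The lymphocyte classes were less well separated from each other. All 2 of 2 CD8 T cell markers reached that share in CD8 T, CD4 T and NK cells alike. Of 5 CD4 T cell markers, 4 reached it in CD4 T cells, 2 in CD8 T cells and 3 in NK cells. Of 7 NK markers, 3 reached it in CD8 T cells (Klrk1, Prf1 and Gzma) and 0 in CD4 T cells. In NK cells 7 of 7 NK markers reached that share, but so did 5 of 7 T cell markers, while Trac was found in 2.49% and Bcl11b in 1.07% of cells. Of 3 gamma delta T cell markers 1 (Trdv4) also reached 10% there, and their summed level was up to 160 CPM. In myeloid cells 9 of 9 myeloid markers reached 10%, as did 1 of 5 neutrophil markers (Csf3r, 12.5%), 1 of 7 NK markers (Klrk1, 13.9%) and 0 of 7 dendritic cell markers. Median depth was 2157 UMIs in CD8 T cells, 2110 in CD4 T cells, 2938 in NK cells, 2305 in myeloid cells and 4704 in ungated cells.

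Chemokines are small secreted proteins that steer leukocytes through receptors coupled to G proteins. Ccl3, Ccl4 and Ccl5 draw macrophages, T cells and NK cells, and Ccl3 and Ccl5 act through Ccr1 among other receptors. Ccl1 acts through Ccr8, a receptor found on regulatory T cells, and Xcl1 through Xcr1, the receptor of cross-presenting dendritic cells. In T cells the genes are switched on after engagement of the antigen receptor, and Ccl5 stays on in effector and memory cells. Ackr2 is a decoy receptor that removes inflammatory CC chemokines.

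In the GRCm38 (mm10) build with GENCODE vM21, 4 of the genes lie on chromosome 11 and Xcl1 lies on chromosome 1. Ccl3 (ENSMUSG00000000982) is at chr11:83647844-83649355 on the minus strand, and Ccl4 (ENSMUSG00000018930) at chr11:83662584-83664683 on the plus strand, with 13228 bases between them. Ccl5 (ENSMUSG00000035042) is at chr11:83525778-83530518, Ccl1 (ENSMUSG00000020702) at chr11:82176657-82305690 and Xcl1 (ENSMUSG00000026573) at chr1:164931644-164935527, all on the minus strand. The first listed transcript of each gene has 3 exons. RefSeq promoter sequence (GRCm38.p6) was matched for 3 of the 5 genes. Ccl4 and Ccl5 had no match, and the part of these letters in how levels moved together was not tested. The 150 bases before the RefSeq transcription start are shown for the other genes, with the letters of motif matches in capitals: the core GGAAA, bound by NFAT factors downstream of the antigen receptor and searched for on both strands, and the TATA box TATAA. The windows are chr11:83649379-83649528 for Ccl3, chr11:82179813-82179962 for Ccl1 and chr1:164935523-164935672 for Xcl1, each read 5′ to 3′ on the minus strand. They are counted from RefSeq starts, which differ from the GENCODE gene ends above. The Ccl1 window lies within the GENCODE Ccl1 gene, and the Xcl1 window overlaps the end of its gene.
Ccl3: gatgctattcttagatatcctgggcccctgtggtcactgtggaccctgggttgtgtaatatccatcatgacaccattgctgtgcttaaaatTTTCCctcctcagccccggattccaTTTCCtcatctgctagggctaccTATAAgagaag
Ccl1: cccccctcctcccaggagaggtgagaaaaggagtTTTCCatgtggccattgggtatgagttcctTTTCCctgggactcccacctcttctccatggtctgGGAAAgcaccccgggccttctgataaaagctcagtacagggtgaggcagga
Xcl1: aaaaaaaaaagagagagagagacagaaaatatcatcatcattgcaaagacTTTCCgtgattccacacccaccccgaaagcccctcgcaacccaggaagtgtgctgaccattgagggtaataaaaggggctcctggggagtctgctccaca
A match on the opposite strand is printed as its reverse complement. The NFAT core occurred on either strand 2 times in the Ccl3 window, 3 times in the Ccl1 window and 1 time in the Xcl1 window, and it was present in 37.6% of the 32851 promoters of the same length. TATAA occurred in the Ccl3 window alone of these 3, from base 11 to base 7 before the start, and in 14.2% of all promoters. The AP-1 motif TGANTCA, present in 4.24% of promoters, and the NF-kB motif, present in 2.38%, had no match in these windows on either strand. A match describes the letters and is not evidence of binding, and no match says only that these letters are not in the window.

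The class levels differed in order from gene to gene. They are CPM of counts summed over the cells of a class in a tumour, for tumours with at least 10 such cells: 25 tumours for CD8 T cells, 21 for CD4 T cells, 10 for NK cells and 37 for myeloid cells. Ccl5 had a median of 2532 CPM (range 474 to 10626) in CD8 T cells and 2209 (407 to 6024) in NK cells, against 437 (55.0 to 1808) in CD4 T cells and 550 (123 to 2642) in myeloid cells. In tumours with both classes, Ccl5 was higher in CD8 T than in CD4 T cells in 18 of 18 and than in myeloid cells in 24 of 25, with CD8 T and NK cells in either order (higher in CD8 T cells in 7 of 9).

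Xcl1 was highest in NK cells, with a median of 1791 CPM (465 to 3309), followed by CD8 T cells with 218 (0 to 1668). Its medians were 4.65 CPM (0 to 485) in CD4 T cells and 5.61 (0 to 115) in myeloid cells, an order that was not kept within tumours (higher in CD4 T cells in 10 of 21). NK cells exceeded CD8 T cells in 9 of 9 tumours, by a median of 2.17 on the log2(CPM + 10) scale with a lowest difference of 1.51.

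Ccl4 had a median of 892 CPM (265 to 3212) in myeloid cells and 811 (247 to 1908) in NK cells, with 427 (79.0 to 1569) in CD8 T cells and 284 (16.3 to 5688) in CD4 T cells. Myeloid cells were above CD8 T cells in 19 of 25 tumours and above CD4 T cells in 17 of 21, and above NK cells in 6 of 10. Ccl3 followed with 154 CPM (40.1 to 913) in myeloid cells, 123 (0 to 174) in NK cells, 112 (0 to 1927) in CD4 T cells and 93.1 (0 to 380) in CD8 T cells. The neighbouring Ccl3 medians lay well inside each other's ranges.

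Ccl1 was highest in CD4 T cells. Its median was 140 CPM (0 to 2234) in CD4 T cells, and 0 in CD8 T cells (0 to 1420, with 14 of 25 tumours at 0), NK cells (0 to 26.7, 9 of 10 at 0) and myeloid cells (0 to 307, 22 of 37 at 0). CD4 T cells exceeded NK cells in 10 of 10 tumours, myeloid cells in 20 of 21 and CD8 T cells in 15 of 18, with 2 the other way.

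**Figure D1:**
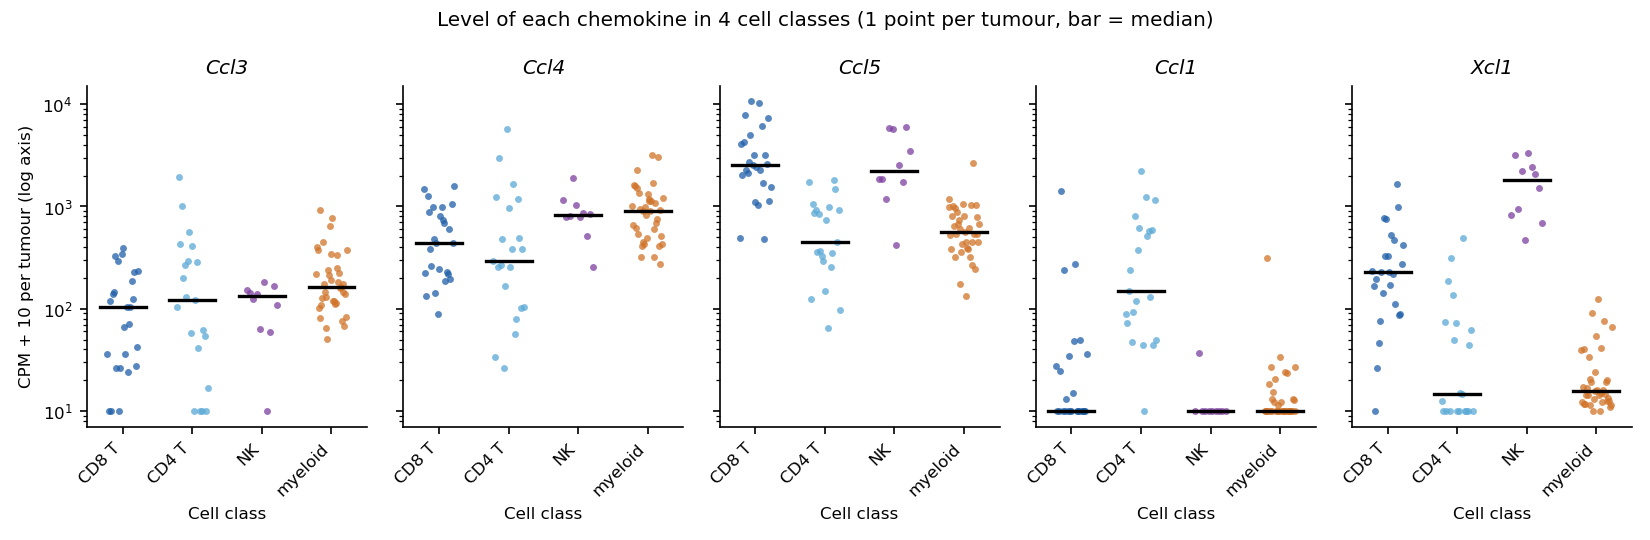
Level of each chemokine as CPM + 10 on a log axis in CD8 T, CD4 T, NK and myeloid cells, with 1 point per tumour and a bar at the median. Ccl5 is high in CD8 T and NK cells, Xcl1 in NK cells and Ccl1 in CD4 T cells, while Ccl3 and Ccl4 overlap between all 4 classes.

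Shares of cells with at least 1 UMI put the same class first as the medians for each gene once every cell had been thinned to 1000 UMIs. Ccl5 was found in 64.6% of 760 CD8 T cells (95% exact binomial interval 61.1 to 68.0%; 79.5% before thinning), 58.9% of 265 NK cells, 23.9% of 1000 CD4 T cells and 23.1% of 6389 myeloid cells. Xcl1 was found in 53.2% of NK cells (47.0 to 59.3%), 13.2% of CD8 T cells, 1.80% of CD4 T cells and 0.595% of myeloid cells. Ccl1 was found in 10.2% of CD4 T cells (8.39 to 12.2%), 1.45% of CD8 T cells, 0.377% of NK cells and 0.188% of myeloid cells. Ccl4 was found in 35.3% of myeloid cells, 27.2% of NK cells, 25.9% of CD8 T cells and 8.90% of CD4 T cells, and Ccl3 in 14.6%, 7.17%, 8.55% and 6.40% in that order. The intervals cover counting error only, and thinning left out 110 CD8 T, 79 CD4 T, 16 NK and 819 myeloid cells.

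Day 0 cells gave the background for these shares, with no more than 0.251% of 6771 thinned cells holding Ccl4, 0.0591% Ccl3, 0.0886% Xcl1 and 0 holding Ccl1, which allows a share of up to 0.0443%. The exception was Ccl5, found in 16.9% of day 0 cells. It was found in 37.3% of SCC40 and 31.8% of SCC37 day 0 cells, but in 8.27% of SCC35, 6.51% of SCC32 and 4.18% of SCC31 ones. Only 18 of the 7012 day 0 cells passed any of the 4 gates. The myeloid and CD4 T shares of Ccl5 are therefore below those of the SCC40 and SCC37 day 0 cells, whose median depth before thinning was 10097 and 8742 UMIs against 2557 in myeloid cells.

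**Figure D2:**
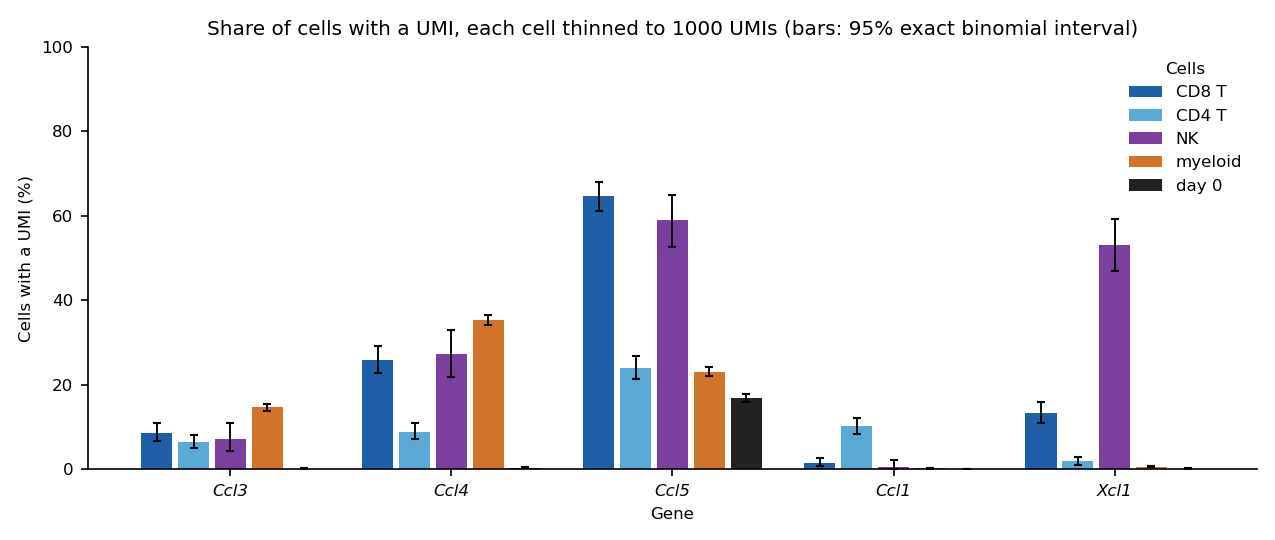
Percent of cells with at least 1 UMI of each chemokine after thinning every cell to 1000 UMIs, with bars for 95% exact binomial intervals. Day 0 cells are at or near 0 for 4 genes and at 16.9% for Ccl5.

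Ccl5 was found in ungated cells as well as in lymphocytes. In the 2 day 0 samples of each line its level was 71.4 and 76.9 CPM in SCC31, 148 and 168 in SCC32, 221 and 419 in SCC35, 899 and 1154 in SCC37, and 1990 and 2020 in SCC40. The ranges of the 5 lines did not overlap, and no other member exceeded 6.44 CPM in any day 0 sample. Ungated tumour cells had a median Ccl5 of 399 CPM over 40 tumours (164 to 1561), with 317 to 1244 in SCC40 and 164 to 371 in SCC35. They held 77.2% of all Ccl5 counts of tumour cells, against 7.52% in CD8 T and 2.21% in NK cells. By contrast, myeloid cells held 60.5% of Ccl3 and 58.0% of Ccl4 counts, CD4 T cells 62.8% of Ccl1 counts, and ungated cells 35.1%, NK cells 32.1% and CD8 T cells 15.7% of Xcl1 counts.

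**Figure D3:**
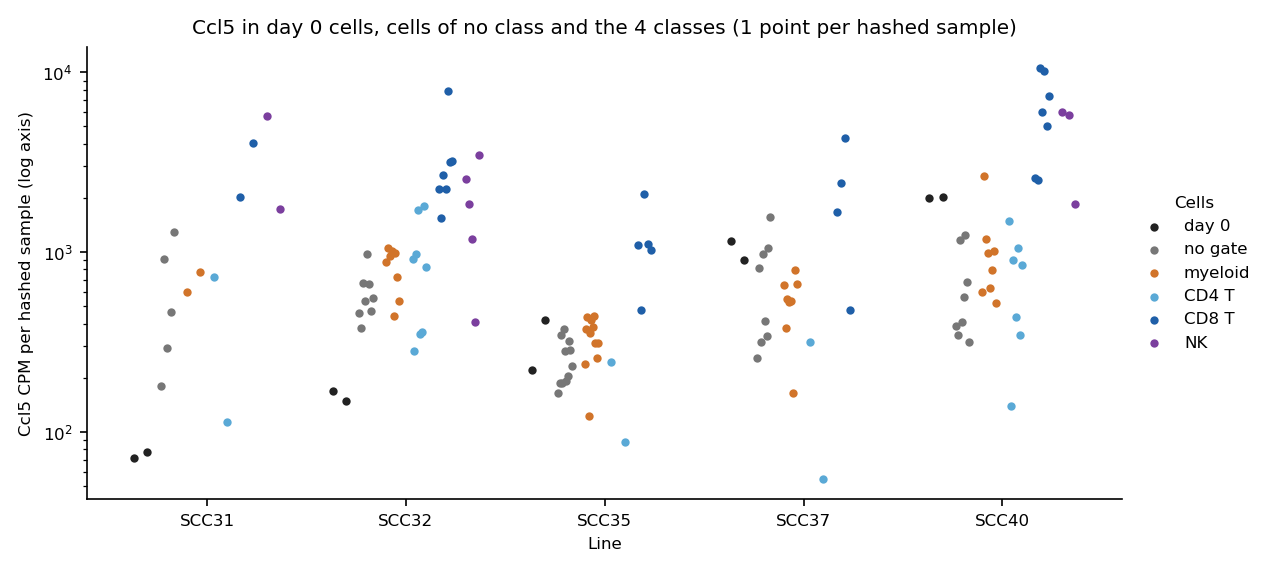
Ccl5 CPM on a log axis in every hashed sample, by line, for day 0 cells, ungated tumour cells and the 4 classes. Day 0 samples range from 71.4 CPM in SCC31 to 2020 CPM in SCC40, and CD8 T and NK cells lie above the other tumour cells in most tumours.

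Between days, Ccl3 in myeloid cells and Ccl5 in CD8 T cells were called higher at the last day, and neither was called without the 3 tumours named above. CD4 T cell Ccl4 was called lower at day 10, and myeloid Xcl1 higher at the last day in SCC40, also without those tumours. Both values came largely from single cells (below). The NK cell calls between days are given below with their limits. Between lines, each of the members differed in myeloid cells at day 16, also without those tumours, none of which is of that day. The Ccl1 call was lost without 1 SCC37 tumour, and nearly all SCC40 Xcl1 counts came from 1 cell a tumour. Line and library cannot be told apart there. The tests compared tumours within lines (edgeR quasi-likelihood test, p-values adjusted over all genes of a class, called at 0.05). In CD8 T cells 0 of 5 members were called at day 10 against day 6 in SCC31, SCC32 and SCC40, beside 0% of 2584 genes (297 at an unadjusted p under 0.05, and 8 called by DESeq2). At the last day against day 6, in SCC32 and SCC40, 1 of 5 was called, beside 8.71% of genes. Between lines 0 of 5 were called at day 10, beside 0% of genes (98 at an unadjusted p under 0.05, 3 by DESeq2), and 1 of 5 at day 16, beside 0.735%. The change over days differed between lines for 0 of 5 members, beside 0% of genes, both to day 10 (219 genes at an unadjusted p under 0.05, 0 by DESeq2) and to the last day (124 genes).

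In CD4 T cells 1 of 5 members was called at day 10 against day 6, beside 4.18% of 3040 genes, and 0 of 5 at the last day, beside 1.84% (56 genes, with 42 called by DESeq2). Between lines 1 of 5 was called at day 10, beside 5.36% of genes, and 0 of 5 at day 16, beside 6.55%. The change over days differed between lines for 0 of 5 members, beside 0.0329% of genes to day 10 and 0% to the last day (284 genes at an unadjusted p under 0.05). In myeloid cells 0 of 5 members were called at day 10 against day 6, beside 10.0% of 8663 genes, and 1 of 5 at the last day, beside 15.7%. Between lines 2 of 5 were called at day 10, beside 8.24% of genes, and 5 of 5 at day 16, beside 12.9%. The change over days differed between lines for 0 of 5 members, beside 0% of genes to day 10 (560 at an unadjusted p under 0.05, 7 by DESeq2) and 0.219% to the last day. Within single lines, 1 of 5 was called in SCC32 at its last day, beside 3.46% of genes, and 1 of 5 in SCC40, beside 3.23%. The day 16 comparison and the one of changes to the last day were added after the data had been seen.

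In NK cells 3 members passed the filter on low counts (Ccl4, Ccl5 and Xcl1), and 1 of 3 was called at day 10 against day 6, beside 12.6% of 1410 genes, and 2 of 3 at the last day, beside 2.27%. The change over days differed between lines for 3 of 3 members to day 10, beside 3.97% of genes, and for 2 of 3 to the last day, beside 0.780%. These calls rest on the spread of 1 pair of tumours (SCC32 day 10), which left 1 residual degree of freedom, so the NK levels are read below as values. DESeq2 called 4 NK genes at day 10 and 0 at the last day.

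Ccl3 and Ccl4, which are neighbours on chromosome 11, were tracked best in myeloid cells. Myeloid Ccl3 in SCC32 was 130 and 232 CPM at day 6, 363 and 435 at day 10, 763 and 640 at day 16, and 323 and 913 at day 20. Every later SCC32 tumour was above both day 6 tumours. In SCC35 it was 71.5, 72.2 and 148 CPM at day 6, 99.6, 109 and 212 at day 10, 174 and 104 at day 16, and 207, 181 and 203 at day 20, so that only day 20 stood clear of day 6. SCC37 had 137 and 163 CPM at day 6, 367 and 121 at day 10, 242 and 394 at day 16, and 154 and 333 at day 20, with overlap at days 10 and 20. In SCC40 the values were 92.7, 109 and 65.7 CPM at day 6, 118, 136 and 102 at day 10, and 164 and 57.4 at day 16, which overlapped. The SCC31 tumours of the mix library had 54.3 CPM at day 6 and 40.1 at day 10.

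Averaged over SCC32, SCC35, SCC37 and SCC40, myeloid Ccl3 rose by a log2 fold change of 0.98 (SE 0.25, adjusted p = 0.00685) from day 6 to the last day. The call was lost without tumour 2 of SCC32 day 20 (0.73, adjusted p = 0.0511), the tumour whose Y-linked level stood apart, and without tumour 1 of SCC40 day 16 (0.75, adjusted p = 0.0571). It was 0.71 (adjusted p = 0.0578) without all 3 tumours in doubt. SCC32 alone showed a log2 fold change of 1.84 (SE 0.50, adjusted p = 0.0340), 0.85 (adjusted p = 0.666) without that day 20 tumour and 0.81 (adjusted p = 0.677) without all 3. In that line the summed neutrophil markers ranged from 81.5 to 195 CPM at day 6 and from 49.5 to 932 CPM at day 20, and their part in the result was not tested. At day 10 the change was not called (0.46, SE 0.28, adjusted p = 0.357).

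Myeloid Ccl4 was not called between days (0.04, SE 0.24, adjusted p = 0.953 at the last day). SCC32 had 1066 and 1693 CPM at day 6 and 3018 and 2246 at day 16. SCC35 had 424, 313 and 532 CPM at day 6 and 676, 602 and 892 at day 20. SCC40 had 1209, 974 and 1165 CPM at day 6, 891, 814 and 504 at day 10, and 587 and 308 at day 16. The later SCC40 days did not overlap with day 6 and lay below it, a change that was not called in that line (-1.24, SE 0.49, adjusted p = 0.184), while SCC32 at day 16 and SCC35 at day 20 lay above their day 6 tumours. The test of a different change between lines did not call Ccl4 (adjusted p = 0.368 to the last day and 0.804 to day 10).

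Lines differed in myeloid Ccl3 at day 10 (adjusted p = 0.0141), from 40.1 CPM in SCC31 to 435 in SCC32, and at day 16 (adjusted p = 0.00128), from 57.4 in SCC40 to 763 in SCC32. Without the mix library, which holds the SCC31 tumours, the day 10 value was 0.00776, and it was 0.0700 without tumour 2 of SCC32 day 10. Myeloid Ccl4 differed at day 16 (adjusted p = 0.00216), where SCC32 had 3018 and 2246 CPM against 747 and 1344 in SCC37, 647 and 443 in SCC35, and 587 and 308 in SCC40. At day 10 its adjusted p was 0.0701, and 0.00588 without the mix library. Line and library cannot be told apart in these comparisons.

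**Figure D4:**
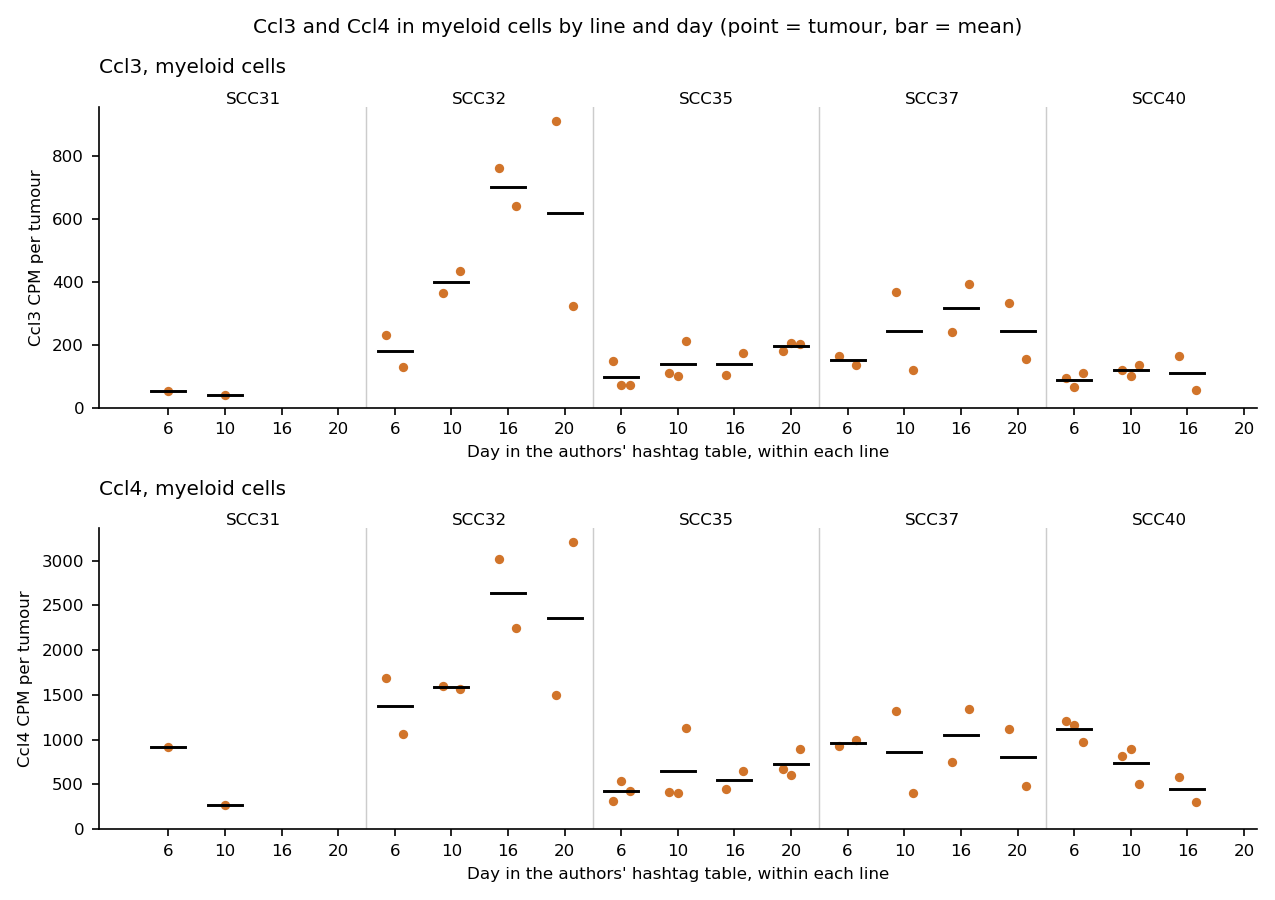
Myeloid Ccl3 and Ccl4 in CPM by line and day, with 1 point per tumour and a bar at the mean. Both genes are highest in SCC32, Ccl3 is above its day 6 values in every later SCC32 tumour, and Ccl4 in SCC40 lies at 974 to 1209 CPM at day 6 and at 308 and 587 at day 16.

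CD8 T cell Ccl4 in SCC40 was 210 and 179 CPM at day 6, 234, 1051 and 687 at day 10, and 1252 and 986 at day 16, with no overlap between day 6 and later days. In SCC32 it was 212 CPM at day 6, 867 and 134 at day 10, 586 and 725 at day 16, and 427 and 1482 at day 20. The change to the last day did not pass the test (2.28, SE 0.81, adjusted p = 0.0825). SCC35 had 979 and 375 CPM at day 16 and 122, 1569 and 186 at day 20, a spread as wide as that between days elsewhere. CD8 T cell Ccl3 ran from 0 to 26.3 CPM at day 6 (4 tumours of 3 lines, SCC31 among them). It ran from 14.0 to 319 at the last day of SCC32 and SCC40, the lines tested (adjusted p = 0.111).

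CD4 T cell Ccl4 was called lower at day 10 than at day 6 (log2 fold change -3.94, SE 0.82, adjusted p = 0.0115), but the value rested on single cells. At day 6 it was 1654 CPM in SCC31, 245 and 1173 in SCC32, and 5688 and 47.0 in SCC40. At day 10 it was 16.3 CPM in SCC31, 156 and 370 in SCC32, and 258, 23.8 and 247 in SCC40, overlapping with day 6 in SCC32 and SCC40. In the SCC40 tumour with 5688 CPM, 1 of 10 CD4 T cells held 96.5% of the 487 counts, and that tumour also had the highest Ccl3 (1927 CPM, 97.6% of it in 1 cell). Without it the change was -1.97 (adjusted p = 0.343), and with at least 20 cells a tumour it was 0.04 (adjusted p = 0.995). Without the mix library, and so without SCC31, it was -3.24 (adjusted p = 0.00468), and -2.62 (adjusted p = 0.0277) without the 3 tumours in doubt. Ccl3 followed the same pattern without a call (adjusted p = 0.0590), and its sign turned to 0.39 without the same tumour. At day 20 SCC32 again had high CD4 T cell Ccl4, at 957 and 2946 CPM, with 95.3% of the latter in 1 cell.

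NK cell Ccl4 was 502 CPM at day 6 and 833 at day 10 in SCC31, and 775, 855 and 789 at days 6, 10 and 16 in SCC40. In SCC32 it was 1908 CPM at day 6, 774 and 1018 at day 10, 1138 at day 16 and 247 at day 20, the lowest of the 10 tumours. The fall to the last day averaged over SCC32 and SCC40 was called (-1.37, SE 0.31, adjusted p = 0.00128), and it was 0.11 (adjusted p = 0.948) without the SCC32 day 6 tumour and -0.26 (adjusted p = 0.790) without the SCC32 day 20 tumour. NK cell Ccl3 lay between 0 and 174 CPM and was not tested.

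Ccl5, a chemokine made by effector and memory lymphocytes, was higher in CD8 T cells at the last day than at day 6 in SCC40 and SCC32. In SCC40 it was 2577 and 2532 CPM at day 6, 4998, 10165 and 6049 at day 10, and 10626 and 7360 at day 16. In SCC32 it was 2249 CPM at day 6, 3150 and 2247 at day 10, 3208 and 1546 at day 16, and 2696 and 7842 at day 20. Later SCC40 tumours did not overlap with day 6, whereas in SCC32 only day 20 lay above the 1 day 6 tumour. The mean change to the last day in these lines was a log2 fold change of 1.44 (SE 0.42, adjusted p = 0.0362). It was 1.02 (adjusted p = 0.131) without tumour 2 of SCC32 day 20 or all 3 tumours in doubt, and the call was also lost without the SCC32 day 6 tumour (0.144), tumour 3 of SCC40 day 6 (0.0912) or tumour 1 of SCC40 day 16 (0.0858). It was lost too without the mix library (1.42, adjusted p = 0.0653) and with the tumour number as a replicate block (1.39, adjusted p = 0.0888). In SCC32 alone the change was 1.11 (adjusted p = 0.378), and 0.21 (adjusted p = 0.918) without its tumour in doubt. The day 10 change over SCC31, SCC32 and SCC40 was 0.22 (SE 0.35, adjusted p = 0.892). The SCC32 day 6 tumour, with 10 CD8 T cells, also had summed fibroblast markers of 3031 CPM in this class, against 21.0 to 107 at day 20 and at most 59.6 in SCC40 at day 6. In SCC40 CD8 T cells the summed NK markers were 421 to 536 CPM at day 6 and 993 to 1725 at day 16, and the T cell markers 968 to 1341 and 2039 to 2452. In SCC32 the NK markers were 407 CPM at day 6 and 548 to 679 at day 20, and the T cell markers 733 and 2283 to 3405. Their part in the result was not tested.

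At day 16 CD8 T cell Ccl5 was 10626 and 7360 CPM in SCC40, 4294 in SCC37, 3208 and 1546 in SCC32, and 1115 and 2112 in SCC35. SCC40 lay above every tumour of the other lines, and the difference between lines was called (adjusted p = 0.0475), although leaving out 1 tumour at a time moved it between 0.0142 and 0.307 and ended the call for 11 of 25 tumours. In SCC35 the values were 1027, 479 and 1093 CPM at day 20, below both day 16 tumours. SCC37 had 474 CPM at day 10 and 1679 and 2437 at day 20, and SCC31 had 4030 CPM at day 6 and 2037 at day 10. At day 10 the test between lines gave an adjusted p of 0.264.

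CD4 T cell Ccl5 was 830 and 1808 CPM at day 6 and 350 and 360 at day 10 in SCC32, 140 and 345 at day 6 and 1482, 437 and 1051 at day 10 in SCC40, and 114 then 727 CPM in SCC31. Day 10 lay below day 6 in SCC32 and above it in SCC40 and SCC31, and the test of that difference did not pass (adjusted p = 0.0658). It passed without the 3 tumours in doubt, and so between SCC32 and SCC40 (adjusted p = 0.0392), and did not pass without the mix library (adjusted p = 0.157). In the higher SCC32 day 6 tumour, 85.6% of the 229 counts came from 1 cell. Levels at day 10 differed between lines (adjusted p = 0.0249), with 87.7 CPM in SCC35 and 55.0 and 316 in SCC37 below every tumour of the other 3 lines. That call was lost without tumour 1 of SCC40 day 10 (0.102) and without 4 other tumours left out in turn.

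**Figure D5:**
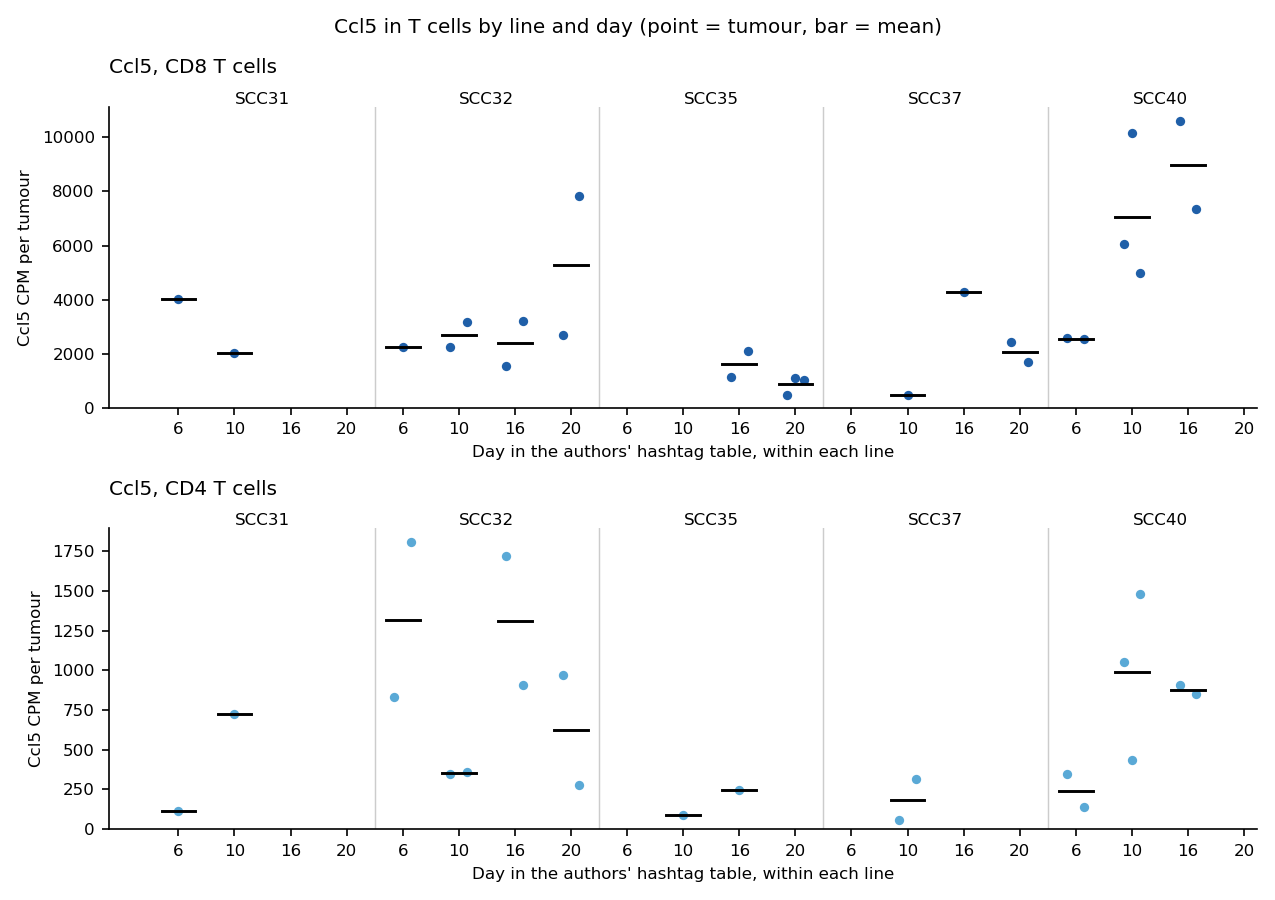
Ccl5 CPM in CD8 T cells and CD4 T cells by line and day, with 1 point per tumour and a bar at the mean. In CD8 T cells SCC40 lies at 2532 and 2577 CPM at day 6 and at 7360 and 10626 at day 16. In CD4 T cells SCC32 lies at 830 and 1808 CPM at day 6 and 350 and 360 at day 10, and SCC40 at 140 and 345 and then at 437 to 1482.

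NK cell Ccl5 was 1727 CPM at day 6 and 5678 at day 10 in SCC31, and 1848, 6024 and 5781 CPM at days 6, 10 and 16 in SCC40. In SCC32 it was 1855 CPM at day 6, 2563 and 3450 at day 10, 407 at day 16 and 1179 at day 20. All 4 day 10 tumours were above all 3 day 6 tumours (log2 fold change 1.49, SE 0.13). At day 6 the 3 lines lay within 1727 to 1855 CPM, and by day 16 SCC40 and SCC32 stood far apart, each with 1 tumour. Leaving out 1 tumour at a time gave 1.20 to 1.91. Without the mix library, which holds both SCC31 tumours and the SCC40 day 10 tumour, the change was 0.71 and no longer called (adjusted p = 0.164).

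Myeloid Ccl5 differed between lines at day 10 (adjusted p = 0.00811) and day 16 (adjusted p = 0.00886). At day 16 it was 1057 and 992 CPM in SCC32, 1185 and 633 in SCC40, 164 and 550 in SCC37, and 313 and 237 in SCC35. At day 10 tumour 1 of SCC40 had 2642 CPM, the highest of the 37, and the adjusted p was 0.0523 without it. SCC35 was the lowest line, with 123 to 440 CPM over its 11 tumours. The day 0 cells of the lines differ in the same gene (above), and their part in the myeloid difference was not tested. Myeloid Ccl5 was not called between days (0.54 at day 10, adjusted p = 0.154).

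Xcl1, the ligand that draws Xcr1 dendritic cells, was an NK cell gene in every tumour with NK cells. In SCC32 it was 1490 CPM at day 6, 2216 and 3309 at day 10, 3171 at day 16 and 2434 at day 20. In SCC40 it was 943, 465 and 2092 CPM at days 6, 10 and 16, and in SCC31 815 and 678 CPM. The 5 SCC32 values were above all SCC31 values and above 2 of 3 SCC40 values. The last day was called higher than day 6 over SCC32 and SCC40 (1.01, SE 0.21, adjusted p = 0.000281), with the limit of 1 residual degree of freedom given above. The call was lost in 2 of 8 fits that left out 1 tumour (adjusted p up to 0.256) and in 4 of 8 other settings, and the SCC40 part was -0.69 without its day 16 tumour.

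CD8 T cell Xcl1 was 16.3 CPM at day 6 in SCC32, 770 and 316 at day 10, 226 and 980 at day 16, and 511 and 209 at day 20, with the day 6 value from 1 count in 10 cells. In SCC40 it was 316 and 0 CPM at day 6, 78.1, 133 and 36.2 at day 10, and 458 and 101 at day 16, which overlapped. The highest level was 1668 CPM in tumour 2 of SCC35 day 20, where 1 cell held 84.2% of 101 counts. No day or line comparison of CD8 T cell Xcl1 was called (adjusted p = 0.174 at the last day).

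CD4 T cell Xcl1 came from few cells, with 34 of 1079 positive and 84.1% of the counts in the 10 highest. SCC40 had 0 CPM in both day 6 tumours, 51.5, 0 and 4.94 at day 10, and 307 and 64.2 at day 16, and SCC32 had 39.5 and 0 CPM at day 6 and 179 and 485 at day 20. The last day lay above day 6 in both lines, and the change did not pass the test (adjusted p = 0.0564).

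Myeloid Xcl1 was low, and the cells that held it were rare (77 of 7208). At day 10 the test between lines gave an adjusted p of 0.0949, and 0.0360 without the 3 tumours in doubt. It differed between lines at day 16 (adjusted p = 0.000622), with 115 and 65.4 CPM in SCC40 and 4.32 and 80.7 in SCC37 against 9.28 and 5.61 in SCC32 and 1.54 and 1.55 in SCC35. Xcl1 in SCC40 rose from 29.9, 6.05 and 4.58 CPM at day 6 to those day 16 values (log2 fold change 2.97, SE 0.81, adjusted p = 0.0326), a call lost without the mix library (2.32, adjusted p = 0.0794). At day 16 all 38 counts of tumour 1 came from 1 cell and 97.6% of the 41 counts of tumour 2 from 1 cell. Over the same days the summed NK markers in SCC40 myeloid cells went from 179 to 393 CPM at day 6 to 82.1 to 123 CPM at day 16, and the T cell markers from 51.9 to 63.5 CPM to 47.8 to 161 CPM. Their part in the result was not tested.

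Ccl1, the Ccr8 ligand, came from a small part of the CD4 T cells. It was detected in 142 of 1079 cells, and the 10 cells with the most counts held 47.6% of 1463. SCC32 had 63.2 and 613 CPM at day 6, 581 and 1147 at day 10, 34.4 and 366 at day 16, and 2234 and 797 at day 20. SCC40 had 140 and 0 CPM at day 6, 232, 119 and 109 at day 10, and 34.4 and 508 at day 16. SCC31 had 1226 CPM at day 6 and 39.5 at day 10, SCC35 570 at day 10 and 37.8 at day 16, and SCC37 78.9 and 82.5 at day 10. Day 20 of SCC32 was above both of its day 6 tumours, and the other SCC32 and SCC40 days overlapped with day 6. No comparison called Ccl1 in CD4 T cells (between lines at day 10, adjusted p = 0.0611).

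CD4 T cells with a Foxp3 UMI, the defining factor of regulatory T cells, had less Ccl1. It was found in 2 of 86 such cells (2.33%, median depth 2515 UMIs) against 140 of 993 without a Foxp3 UMI (14.1%, 2071 UMIs), or 24.4 against 477 CPM over the pooled cells. In the 2 tumours with at least 10 cells of each kind, both SCC32 at day 10, the Ccl1 level was lower with Foxp3, with medians of 56.5 and 1045 CPM. The pooled level was also lower with Foxp3 for Ccl3 (101 against 237 CPM), Ccl4 (330 against 593), Ccl5 (357 against 694) and Xcl1 (3.05 against 75.8). Xcl1 was lower in both tumours too, and Ccl3, Ccl4 and Ccl5 each in 1 of 2. The share of cells with Ccl4 was higher with Foxp3 (24.4% against 14.8%). This split was chosen after the levels were known and has no test.

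Outside CD4 T cells Ccl1 was sporadic. In CD8 T cells 17 of 870 cells held it, and SCC35 stood out with 264 CPM in 1 of 2 day 16 tumours and 0, 1420 and 227 CPM at day 20, while no other tumour exceeded 39.9 CPM. In the 1420 CPM tumour 2 cells held all 86 counts, 80.2% of them in 1. Of the 17 cells 14 also held Xcl1 (82.4%), against 19.3% of CD8 T cells without Ccl1. In myeloid cells Ccl1 was called between lines at day 16 (adjusted p = 0.00188), but 71 counts in 1 cell made up the 307 CPM of tumour 1 of SCC37, and without that tumour the adjusted p was 0.340.

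Within cells, Ccl3 and Ccl4 were found together. Ccl4 was detected in 86.8% of CD8 T cells with a Ccl3 UMI against 28.3% of those without, in 87.8% against 33.3% of NK cells, in 81.5% against 36.6% of myeloid cells and in 55.9% against 11.4% of CD4 T cells. Median depth with and without Ccl3 was 2763 and 2127 UMIs in CD8 T cells, 2731 and 2946 in NK cells, 3035 and 2124 in myeloid cells, and 2749 and 2061 in CD4 T cells. Across tumours the Pearson correlation of Ccl3 with Ccl4 on the log2(CPM + 10) scale was 0.80 in CD8 T cells (25 tumours), 0.83 in CD4 T cells (21) and 0.79 in myeloid cells (37), but -0.09 in NK cells (10). Tumours of a line share a library, so these are descriptions. Ccl5 was less tied to Ccl4, at 0.41 in CD8 T cells and 0.34 in myeloid cells. Its correlation with Ccl1 in CD8 T cells was -0.58, with Ccl1 at 0 in 14 of the 25 tumours. Within CD8 T cells Ccl5 was detected in 76.5% of those with a Ccl1 UMI and in 79.5% of those without.

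Among 2680 genes compared over the 25 tumours in CD8 T cells, the 3 most like Ccl3 were Ccl4 (0.80), Supt16 (0.65) and Ifng (0.63), and those most like Ccl4 were Ccl3, Spcs2 (0.65) and Larp7 (0.59). For Ccl5 they were H3f3b (0.79), Cytip (0.75) and Pycard (0.74), and for Xcl1 Taldo1 (0.70), Pfdn6 (0.67) and Ifng (0.63). For Ccl1, which was at 0 in 14 of these tumours, they were Gadd45gip1 (0.67), Set (0.65) and Cltb (0.58). In myeloid cells, among 2769 genes over 37 tumours, Rasgef1b (0.86), Dusp2 (0.82) and Pld4 (0.81) were most like Ccl3, and Ccl3 (0.79), B2m (0.79) and Ptpn6 (0.78) most like Ccl4. For myeloid Ccl5 they were Marcksl1 (0.72), Pnrc1 (0.72) and Cd52 (0.71).

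Receptors of these chemokines were read in the same cells. Ccr1 was mainly myeloid, in 30.6% of those cells, and Ccr8 mainly in CD4 T cells, in 22.8%. Xcr1 was held by 61 myeloid cells, 48 ungated cells and 5 CD4 T cells, Ackr2 by 32 ungated cells and no gated cell, and Ccr3 by 23 ungated cells, 8 myeloid cells, 5 CD4 T cells and 1 CD8 T cell. Myeloid Ccr1 fell from a median of 184 CPM at day 6 to 116 at day 10 (log2 fold change -0.94, SE 0.16, adjusted p = 0.000101), and at the last day it was still called lower (-0.64, SE 0.16, adjusted p = 0.00394). Ccr8 in CD4 T cells rose in SCC31, SCC32 and SCC40 (3.41, SE 0.69, adjusted p = 0.00987 at day 10, beside 4.18% of genes called). Over all lines it ran from 0 to 36.1 CPM in the 5 day 6 tumours (3 lines) and from 39.5 to 228 in the 9 day 10 tumours (5 lines), with no overlap. The Ccr8 change was 2.27 (adjusted p = 0.00224) without the 3 tumours in doubt.

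Other chemokines were read as a list in the same tests. In CD8 T cells 5 of 7 tested were called lower at the last day, beside 8.71% of all genes (list median -3.67 on the log2 scale against 0.04 over all genes), among them the monocyte attractants Ccl7 (-5.53) and Ccl2 (-4.68) and the neutrophil attractants Cxcl1 (-4.44) and Cxcl2 (-3.67). With the 3 tumours in doubt left out, 2 of 7 were called (Ccl2, -4.20, and Cxcl1, -5.38), beside 4.53% of genes, and Ccl7 (adjusted p = 0.0615) was not. The fibroblast markers given with Ccl5 above (3031 CPM in the SCC32 day 6 tumour) accompany these values, and their part was not tested. In SCC40 alone 0 of 7 were called, beside 23 of 2584 genes, with a list median of -2.41. In SCC32 alone 3 of 7 were called, beside 34 of 2584 genes (Cxcl1, -6.47, Ccl2, -5.96, and Cxcl9, -4.83). Without the SCC32 tumour in doubt, which leaves a single tumour at day 20, they were -8.41, -5.07 and -4.77 and no longer called. The CD4 T cells had 3 of 8 lower at the last day (Ccl24, Ccl2 and Cxcl10), beside 1.84%, and 0 of 8 at day 10, beside 4.18%. These counts were 1 of 8 (Cxcl10), beside 0.724%, and 4 of 8, all lower, beside 335 of 3037 genes, without the 3 tumours. Of myeloid genes 7 of 20 were called at the last day, 2 higher and 5 lower, beside 15.7% (8 of 20 and 12.9% without the 3 tumours), with the eosinophil attractant Ccl24 at -4.40, Ccl6 at -1.39 and Cxcl16 at 1.11.

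Of the T cell receptor response and effector genes, 1 of 15 tested was called in CD8 T cells at the last day, beside 8.71% of all genes, the granzyme Gzmk (3.01, SE 0.71, adjusted p = 0.0137), and the list median was 0.66 against 0.04 over all genes. The CD4 T cells had 4 of 19 called at day 10, beside 4.18%. Lta (-2.91), Ifng (-1.09) and Tnfrsf9 (-1.06) fell and the receptor-induced factor Nr4a3 (0.89) rose. Without the 3 tumours in doubt 1 of 18 was called, Nr4a3 (1.38), beside 335 of 3037 genes, and Lta (-1.63, adjusted p = 0.102), Ifng (-0.67, adjusted p = 0.106) and Tnfrsf9 (-0.38, adjusted p = 0.454) were not. Of myeloid genes 5 of 18 were called at the last day, beside 15.7%, with the granzymes Gzma (-4.26) and Gzmb (-2.09) and Tnfrsf9 (-1.41) lower and Nr4a1 (0.50) higher. Without the 3 tumours 4 of 18 were called, and Nr4a1 (0.35, adjusted p = 0.125) was not. The summed NK markers in myeloid cells, of which Gzma is one, were 179 to 393 CPM at day 6 and 82.1 to 123 at day 16 in SCC40, and 81.7 to 196 at day 6 against 32.1 to 129 at day 20 in SCC32, SCC35 and SCC37. Their part in the result was not tested.

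The rejected lines SCC31 and SCC40 were set against the non-rejected ones at day 10 with the line as the unit, over 20 combinations of gene and class. CD4 T cell Ccl5 was higher in the rejected lines by 2.23 on the log2(CPM + 10) scale, CD4 T cell Ccl4 lower (-2.23) and myeloid Ccl3 lower (-1.55). Each reached the smallest p that 2 against 3 lines allow (two-sided exact permutation test, p = 0.2), and 0.784 after adjustment. CD8 T cell Ccl5 was higher by 1.71, over 2 against 2 lines (the same exact permutation test, p = 0.667, smallest possible 0.333). Without the 3 tumours in doubt SCC40 is the only rejected line, and these 4 differences were 2.36, -1.06, -0.88 and 2.57, with 0.5 as the smallest possible p in CD4 T and myeloid cells and 0.667 in CD8 T cells. Other differences were as large. Xcl1 differed by -2.25 in NK cells (2 rejected lines against 1) and by -1.97 in CD8 T cells, and CD4 T cell Ccl1 by -2.01. Without the 3 tumours in doubt these were -2.52, -1.91 and -1.18. With so few lines no difference by outcome could be called.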

How the data were processed

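Single cells of mouse tumours and of day 0 cells were profiled with 10x 5′ libraries and hashtag antibodies, per the labels' protocols. The authors deposited raw UMI counts per gene and barcode, made with Cell Ranger 6.0.0 on mm10 per the submitters' processing notes, with a table that gives each hashtag's line, day and tumour. The sources used here give no other settings.

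Cells with at least 300 genes and at most 15% mitochondrial counts were kept if the strongest hashtag reached 10 counts and was 2 or more times the second. Scrublet calls (scanpy 1.11.5) were removed. In the SCC31 and SCC37 libraries the caller marked 1 and 0 barcodes, so a threshold of 0.260, the median over the remaining libraries, was applied there and marked 122 and 581. Library totals ran from 5691826 to 112724631 UMIs. Counts were summed per tumour and class, with at least 10 cells, and totals ran from 37975 to 316106 in CD8 T cells, 28853 to 430279 in CD4 T cells, 35358 to 204996 in NK cells and 195808 to 2576425 in myeloid cells. Sums were tested with the edgeR 4.0.16 quasi-likelihood test (R 4.3.3, TMM scaling, filterByExpr, 1 mean per line and day), with Benjamini-Hochberg adjustment over all genes tested in a class and a threshold of 0.05. DESeq2 1.42.0, other gates and filters, a replicate block and leaving out each tumour were alternatives. The fit was tried on simulated counts for the CD8 T and myeloid classes only, and not for CD4 T or NK cells. Tumour numbers come from the hashtag table. Number 3 marks the mix library in SCC31, SCC35 and SCC40, and no label otherwise pairs tumours across days, so p-values measure the spread between tumours.

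The members and gene lists were chosen with earlier results of these data known. All members were named, along with the called genes of the lists with the largest changes and the 3 genes most like each member among those with at least 50 CPM on average. The day 16 comparison between lines and the comparison of changes to the last day, and the fits without 3 tumours whose Y-linked level stood apart, were chosen after seeing the data. 1 gene of the receptor list is not reported here.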

Additional observations from a re-analysis of the deposited data

Results flagged for a closer look

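In NK cells the change from day 6 to day 10 differed between SCC31, SCC32 and SCC40 for Xcl1 (edgeR adjusted p = 0.0321), Ccl5 (0.00410) and Ccl4 (0.0157). The change to the last day differed between SCC32 and SCC40 for Ccl5 (adjusted p = 1.69e-07) and Ccl4 (0.000510). Ccl5 went from 1848 to 5781 CPM in SCC40 and from 1855 to 1179 CPM in SCC32, and Ccl4 from 775 to 789 and from 1908 to 247 CPM, each value being 1 tumour. These tests rest on the spread of 1 pair of tumours. DESeq2 called none of the members in either comparison, but it called only 1 of 1410 genes for changes to day 10.

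Ccl5 was found in 16.9% of thinned day 0 cells, which enter no comparison between days, above the other 4 members in the same cells (at most 0.251%).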

How the results depend on the processing

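The counts below are members called, with the edgeR quasi-likelihood test unless another tool is named. Counts over all genes moved with the setting as well. CD8 T cells at the last day had 225 of 2584 genes in the main fit, 12 of 3125 with a hashtag ratio of 4 and 203 of 2747 with the stricter cell filter. CD4 T cells at day 10 had 127 of 3040 in the main fit, 27 of 2965 with stricter gates and 52 of 3009 with a hashtag ratio of 4. Without a low count filter, CD8 T cells gave 1 at day 10, 4 at the last day, 3 between lines at day 10, 2 at day 16, 5 within single lines and 1 for changes to day 10 differing between lines. Of 14265 genes, 28 were called at day 10, 397 at the last day, 20 between lines at day 10 and 54 for those changes. CD4 T cells gave 3, 2, 5, 4, 12 and 4 members in the same order as the members above, and 3 for changes to the last day. Myeloid cells gave 2 at day 10, 2 at the last day, 4 between lines at day 10, 9 within single lines, and 3 and 2 for differing changes. Over all genes, day 10, the last day, lines at day 10 and changes to day 10 gave 215, 133, 350 and 97 of 14553 in CD4 T cells. Myeloid cells had 894, 1426, 1096 and 213 of 17803 genes there. All NK counts were 0 without that filter, with cells of several gates kept and with Scrublet calls kept. NK genes called at day 10, the last day, lines at day 10 and changes to day 10 were 0 of 11732 each without that filter. In the same order they were 21, 0, 25 and 1 of 1529 with several gates kept and 4, 0, 8 and 5 of 1520 with Scrublet calls kept. DESeq2 gave 1 member at day 10, 1 between lines at day 16 and 0 in the other NK comparisons. Over all genes DESeq2 gave 4, 0, 2 and 1 of 1410 in that order. The stricter cell filter also gave 0 for NK changes to day 10, beside 9 of 1218 genes.

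In CD8 T cells the last day count of 1 was 0 with a hashtag ratio of 4, the stricter cell filter, the mix library left out or the replicate block. The count between lines at day 10 was 1 without the mix library, beside 4 of 2482 genes, and with DESeq2, beside 3 of 2584. At day 16 the count between lines was 0 with cells of several gates kept, stricter gates or a hashtag ratio of 4. It was also 0 there with the stricter cell filter, Scrublet calls kept or the replicate block. In CD4 T cells the day 10 count was 0 with stricter gates or a hashtag ratio of 4. It was 2 without the mix library, beside 201 of 2954 genes. The last day count was 1 with Scrublet calls kept (31 of 3621 genes) or at least 20 cells (10 of 4907). Between lines at day 10 it was 0 with cells of several gates (120 of 3478 genes) or Scrublet calls kept (50 of 3621). It was 2 there with stricter gates (139 of 2965), a hashtag ratio of 4 (249 of 3009) or at least 20 cells (229 of 4907). Single lines gave 1 with at least 20 cells. Differing changes to day 10 gave 1 with Scrublet calls kept (29 of 3621 genes) and with DESeq2 (14 of 3040). In myeloid cells leaving out the mix library gave 1 at day 10, beside 725 of 7198 genes. Between lines at day 10 it gave 4, beside 1347 of 7198 genes, against 714 of 8663 in the main fit. Single lines gave 0 with cells of several gates kept. They gave 1 with stricter gates, a hashtag ratio of 4, the mix library left out or DESeq2. Without the 3 tumours in doubt the last day counts in CD8 T and myeloid cells were 0, CD4 T cells gave 1 for differing changes to day 10 and myeloid cells 1 within single lines. The outcome differences of CD4 T cell Ccl3 (-0.75) and myeloid Xcl1 (-0.21) turned to 0.53 and 0.19. With the replicate block, in which number 3 also marks the mix library in 3 lines, myeloid cells gave 3 between lines at day 10. Over all genes that setting called 740 of 8663 there.

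Leaving out 1 tumour at a time gave 0 to 3 in CD8 T cells at the last day and 0 to 1 between lines at day 16. In CD4 T cells it gave 0 to 2 at day 10, 0 to 1 at the last day, 0 to 2 between lines at day 10 and 0 to 1 for changes to day 10. In NK cells it gave 1 to 3 at the last day, 2 to 5 within lines, 0 to 3 for changes to day 10 and 1 to 2 for changes to the last day. In myeloid cells it gave 0 to 1 at the last day, 1 to 3 between lines at day 10 and 1 to 2 within lines. Counts within lines are summed over the lines tested. The share of all genes called in each of these fits is not given here. These ranges therefore describe how the calls moved and are not a result about the members.

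The lowest and highest values over left-out tumours were -2.85 and 0.11 for NK cell Ccl4 at the last day, -0.69 and 1.23 for NK cell Xcl1 in SCC40, -3.40 and 0.39 for CD4 T cell Ccl3 at day 10, and -0.56 and 1.73 for NK cell Ccl5 at the last day. Signs turned in these log2 fold changes. CD4 T cell Ccl4 at day 10 was 0.04 with at least 20 cells, and Ccl3 there was 0.96 with stricter gates, 1.12 with at least 20 cells and 0.39 without tumour 1 of SCC40 day 6. NK cell Ccl4 at the last day was 0.11 without the SCC32 day 6 tumour, and Xcl1 in SCC40 was -0.69 without its day 16 tumour. NK cell Ccl5 in SCC40 was -0.19 with cells of several gates kept and -0.33 with Scrublet calls kept. Over SCC32 and SCC40 at the last day it was -0.69 and -0.39 under the same settings, -2.04 with the stricter cell filter, -0.17 without the SCC32 day 20 tumour, and -0.56 without the SCC40 day 6 or day 16 tumour. The causes were not tested. Classes of 10 cells limit the CD4 T and NK levels, where 1 cell can set a value.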
